A study of Rattus norvegicus with 18 samples.

Results

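In the striata of untreated (UNT) rats, 3775 CpGs carried very different methylation levels on the forward and the reverse strand. They were chosen on chr1 to chr20 of the rat genome build rn6. The cytosine of the forward strand and the cytosine of the reverse strand 1 base further on were paired, their reads were added up over the 6 UNT striata, and a CpG was kept when each strand had 60 or more reads and the percent methylated differed by 30 points or more. These 3775 CpGs were 2.4% of the 157127 CpGs with enough reads on both strands, and 1451601 CpGs had a cytosine with 10 or more reads in at least 1 striatum. The strand gap of the UNT striata chose the CpGs, so it is given as a description and was not tested.

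In mammals, a CpG reads the same on both strands, and the maintenance methyltransferase Dnmt1 copies the methyl mark from the parent strand to the new strand after replication. Most CpGs are therefore methylated or unmethylated on both strands together, and hemimethylated CpGs are mainly known as a short-lived state behind the replication fork. In reduced representation bisulfite sequencing (RRBS), the enzyme MspI cuts at CCGG, short fragments are sequenced from their ends, and unmethylated cytosines are read as T after bisulfite treatment. The cut leaves an overhang, and in common RRBS protocols it is filled in with new nucleotides before the adaptors are added, so that the last CpG of a fragment holds a cytosine made in the tube.

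The samples were 18 striata from 9 male juvenile Wistar rats, with 3 rats per group and the control and the lesioned striatum of each. All rats, UNT included, had received the toxin 6-OHDA, which kills dopamine neurons, in the medial forebrain bundle of 1 side on postnatal day (PND) 21, so no rat was free of the lesion and the control side is the other side of a lesioned brain. From PND 35 to PND 49, and once more on PND 53, UNT rats received saline, L-DOPA rats received L-DOPA with the peripheral decarboxylase inhibitor benserazide, and L-DOPA+R rats received these with the glutamate release inhibitor Riluzole. Striatum was bulk tissue, and methylation calls alone gave no check of its cell types.

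Between 18471279 and 49113957 reads of CpG cytosines were listed per striatum, with a median of 15 to 23 reads per kept cytosine. UNT striata were the deepest, with 1082957 to 1449808 kept cytosines against 639238 to 1080939 in the L-DOPA and 704419 to 950386 in the L-DOPA+R striata. Both strands of 3127 to 3699 of the asymmetric CpGs were kept in each UNT striatum, but of only 920 to 2075 in each L-DOPA and 1159 to 1990 in each L-DOPA+R striatum. In all 18 striata, both strands were kept at 266 of them.

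Sequence around a few asymmetric CpGs was available from RefSeq promoters (build GRCr8), which were placed on the rn6 calls by the spacing of their CpGs. Of 32007 promoters, 6268 found a single place, and these held 17931 of the CpGs with enough reads on both strands, 8 of them asymmetric (0.0446%). Of these 8, 6 lay in a CCGG, beside 3833 of the 17931 (21.4%). At Cep19, Tpt1 and Top1, no CCGG was found up to 60 bases before the lower strand in the sequence available. The Cep19 CpG is chr11:71938539, which the study's lists place in Pigx. The Nek2 CpGs lay in no CCGG, and the last CCGG before their lower strand was 26 and 21 bases away. The MspI fragments that carry 3 of the 8 are shown because both ends of each are CCGG (capitals), the site that MspI cuts, and are 48 and 49 bases apart. They are written on the forward strand, 5′ to 3′, and CCGG occurred in 51.4% of all promoters in the table.
LOC134483814 (CpGs at chr1:191472921 and chr1:191472969): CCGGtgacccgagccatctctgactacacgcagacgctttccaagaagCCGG
Pcdhga8 (CpGs at chr18:30874810 and chr18:30874859): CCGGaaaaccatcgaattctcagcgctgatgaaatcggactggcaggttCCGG

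In the LOC134483814 fragment, which lies upstream of the gene start, the left CpG was methylated to 96.0% on the forward strand (200 UNT reads) and to 6.07% on the reverse strand (214 reads). The right CpG of the same fragment showed the mirror image, with 34.7% on the forward (288 reads) and 97.2% on the reverse strand (212 reads). On each strand, the cytosine at the 5′ end of the fragment was therefore high and the cytosine near its 3′ end was low. In L-DOPA, which did not choose these CpGs, the left CpG stood at 94.1% forward and 7.64% reverse, and the right CpG at 31.2% and 96.7%. With Riluzole added, these levels were 97.0% and 7.19%, then 31.5% and 98.7%.

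The other fragment lies just upstream of Pcdhga8, a gamma protocadherin of the neuronal cell-adhesion cluster. Its right CpG, 14 bases before the gene start, was methylated to 16.7% on the forward strand (544 UNT reads) and to 54.7% on the reverse strand (243 reads). Its left CpG was low on both strands, with 17.9% forward and 4.1% reverse, and was not asymmetric by the 30-point rule. The right CpG stood at 20.6% forward and 70.8% reverse in L-DOPA, and at 16.4% and 72.0% when Riluzole was added.

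Over the 3775 asymmetric CpGs, the lower strand had a median methylation of 5.97% and the higher strand of 88.4%, with a median gap of 72.8 points. The quartiles were 3.16% and 19.3% for the lower strand, 74.0% and 94.7% for the higher strand, and 50.9 and 86.6 points for the gap. The lower strand was the forward one at 1870 CpGs and the reverse one at 1905. At 2392 CpGs (63.4%) the lower strand was at or under 10%, and at 1031 (27.3%) the lower strand was at or under 10% while the higher was at or over 90%. The gap was 80 points or more at 1482 CpGs (39.3%) and under 40 points at 499 (13.2%). Depth was alike on both strands, with a median of 162 UNT reads on the lower and 145 on the higher strand.

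When both strands were added together, as is common for CpG tables, these CpGs looked partly methylated: the merged level had a median of 46.6%, and 95% of them lay between 20% and 80%. Among all 157127 CpGs with enough reads, the merged level had a median of 2.54%, and 14.7% lay in that range. Their surroundings were sparse in CpGs, with a median of 2 other CpGs within 100 bases against 10 for all, and 5 or more neighbours at 16.5% against 72.4%. By chromosome, the share of asymmetric CpGs ran from 1.99% on chr2 to 3.19% on chr20.

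The CpGs next to the threshold show where the rule cuts. Among those kept on both strands in all 18 striata, the nearest inside were chr1:55737118, with 66.2% and 96.4% (gap 30.2 points), and chr3:164515963, with 34.9% and 65.4% (gap 30.5 points). The nearest outside were chr11:29963676, with 3.93% and 33.6%, and chr12:5645368, with 44.4% and 74.2%, both with a gap of 29.7 points. Among the same 266 CpGs kept in all 18 striata, the widest gap belonged to chr11:80742639, where the forward strand had 1.32% and the reverse 98.8%, and its neighbour chr11:80742591 had 3.01% on the reverse and 99.3% on the forward strand. These CpGs lie 48 bases apart and mirror each other as the ends of the LOC134483814 fragment do.

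The low strand had a fixed place. The measure used was how many bases a cytosine lies past, that is in the 3′ direction from, another kept cytosine of its own strand. At 3501 of the 3775 asymmetric CpGs (92.7%), the lower strand was 47 to 49 bases past such a cytosine, with 978 at 47, 1298 at 48 and 1225 at 49 bases. A further 89 CpGs had one 46 bases before and none at 47 to 49. On the higher strand 23 of 3775 (0.609%) had a cytosine 47 to 49 bases before, and among all strands with enough reads 12.3% did. The plot of distances shows the peak on the lower strand alone.

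**Figure D1:**
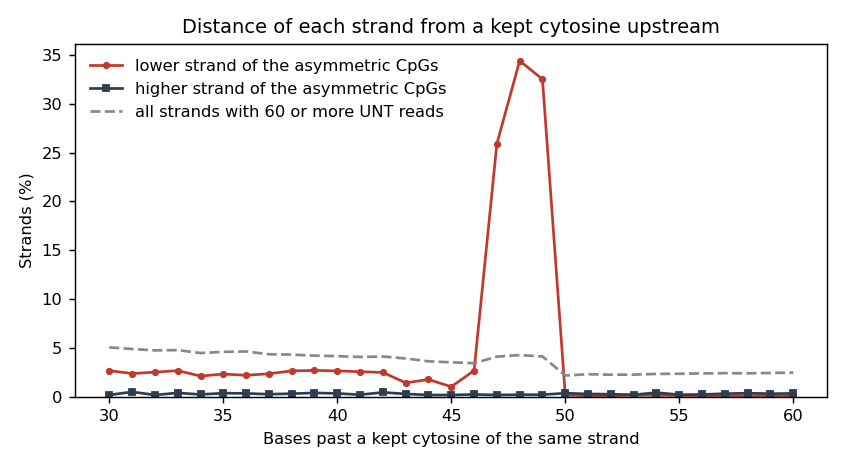
Percent of strands (y axis) that have a kept cytosine of the same strand the given number of bases before them (x axis, bases). The lower strand of the asymmetric CpGs (red) peaks at 47 to 49 bases, at 25.9%, 34.4% and 32.5%, while the higher strand (dark) stays at 0.185% to 0.212% and all strands with 60 or more UNT reads (grey, dashed) at 4.11% to 4.27%.

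Most asymmetric CpGs came as facing pairs. Of 1590 pairs 2 to 60 bases apart, 1563 were 46 to 49 bases apart, and in all 1563 the left CpG was low on the reverse strand and the right CpG low on the forward strand. These pairs held 3126 of the 3775 CpGs (82.8%). The higher strands of the CpGs in a pair had similar levels, within 10 points of each other in 1167 pairs (74.7%) and with a median difference of 5.01 points. At the low strands the UNT reads were 1.01 times those of the cytosine 47, 48 or 49 bases before, in the median at each distance.

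Not every CpG in this position was asymmetric. Of 34075 CpGs with exactly 1 strand 47 to 49 bases past a kept cytosine, 3492 (10.2%) were asymmetric, against 267 of 120836 (0.221%) with neither strand there. The share followed the level of the opposite strand, which the rule also used: it was 1 of 24527 where the opposite strand was under 10% methylated, 407 of 1441 (28.2%) at 30% to 60%, 1466 of 3292 (44.5%) at 60% to 90%, and 1614 of 3661 (44.1%) at 90% or more. In the matched promoters, the higher strand had a median of 0.778%. There, 620 CpGs in a CCGG had the next CCGG 47 to 49 bases away. Only 4 of these 620 had 30% or more on the opposite strand, the one that starts there, and 3 of these 4 were asymmetric.

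The 185 asymmetric CpGs (4.9%) without a kept cytosine at 46 to 49 bases had smaller gaps. Their median gap was 37.6 points, with 25.3% on the lower and 72.6% on the higher strand, and 55.1% of them had a gap under 40 points. Of these, 73 had no kept cytosine within 60 bases before the lower strand. The deepest was chr1:55737118, with 4174 UNT reads on the lower and 1758 on the higher strand, at 62.5% to 70.5% (median 66.2%) on the reverse and 93.7% to 97.8% (median 96.5%) on the forward strand over the 6 UNT striata. The strands did not overlap in any group there, since the L-DOPA striata had 61.4% to 66.9% against 95% to 97.1% and the L-DOPA+R striata 62.0% to 65.8% against 94.3% to 100%.

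Every striatum showed the gap, including the 12 that the rule did not use. Over the asymmetric CpGs kept on both strands, the median gap was 71.4 to 73.9 points in the UNT, 66.4 to 70.7 in the L-DOPA and 64.9 to 71.7 in the L-DOPA+R striata. The strand that was lower in UNT was the lower one at 97.5% to 98.7% of these CpGs in the L-DOPA and at 96.9% to 98.6% in the L-DOPA+R striata. At the 266 CpGs kept in all 18 striata, the SD of the gap over 3 rats had a median of 5.33 points for UNT, 5.85 for L-DOPA and 6.32 for L-DOPA+R, against median gaps of 64.7, 65.0 and 66.8 points. In all 3 L-DOPA rats the same strand was lower at 258 of the 266, and in all 3 L-DOPA+R rats at 261.

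**Figure D2:**
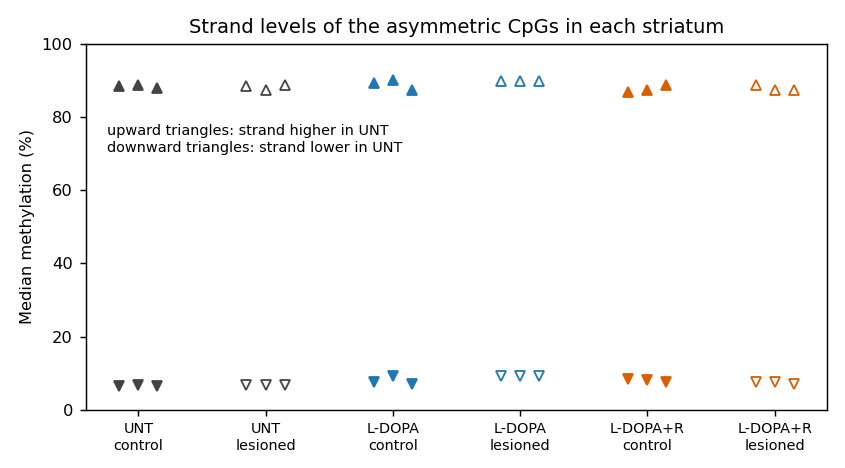
Median methylation (y axis, percent) of the lower (downward triangles) and higher (upward triangles) UNT strand over the asymmetric CpGs kept in each of the 18 striata, by group and side (filled, control; open, lesioned). The lower strand stayed at 6.38% to 9.09% and the higher at 87.0% to 90.2%, with no overlap.

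In the L-DOPA group the strand difference could be tested at 1220 of the asymmetric CpGs, those with both strands kept in 4 or more of the 6 striata. At 1141 (93.5%) it passed the quasi-binomial logistic test (chi-square, Benjamini-Hochberg q under 0.01 over all CpGs tested), against 3.6% of all 67663 CpGs tested, and at 1140 of these the strand that was lower in UNT was the lower one. In L-DOPA+R 1213 of 1319 (92.0%) passed, against 3.04% of all 87611, and 1211 had the same lower strand. The stricter F test called 898 (73.6%) and 920 (69.7%), beside 2.47% and 1.96% of all. With all cytosines 46 to 50 bases past a kept cytosine left out, 24 of 56 and 36 of 66 passed with the same lower strand, beside 0.175% and 0.194% of all CpGs tested in that way.

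At chr7:131710148 in L-DOPA the forward strand had 0.0% to 7.14% (median 3.43%) and the reverse strand 96.0% to 100% (median 98.0%) over 6 striata. The strands did not overlap, and the gap was 94.7 ± 1.32 points (SD, n = 3 rats; quasi-binomial q = 4.04e-102 over all CpGs). Its neighbour chr7:131710100, 48 bases before, had 0.0% to 6.9% (median 2.75%) on the reverse and 91.7% to 100% (median 97.5%) on the forward strand. In L-DOPA+R, chr16:46488858 had 0.0% to 13.3% (median 2.97%) on the reverse and 92.5% to 98.3% (median 96.2%) on the forward strand. Its gap was 92.1 ± 5.05 points (SD, n = 3 rats; quasi-binomial q = 9.72e-99 over all CpGs), beside 91.4 ± 3.79 points in UNT.

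At CpGs with enough reads in both groups, the size of the gap also carried over. Of the asymmetric CpGs with 60 or more reads per strand in L-DOPA, 979 of 1070 (91.5%) had a gap of 30 points or more there, which was 85.0% of the 1152 CpGs that passed the rule in L-DOPA and had enough reads in UNT. Their median gap was 70.6 points in UNT and 70.0 in L-DOPA. In L-DOPA+R 1078 of 1188 (90.7% of these, 84.4% of the 1278 in that group) had such a gap, with medians of 70.7 and 68.4 points. The CpGs compared came mostly from 48 and 49 bases. In L-DOPA, 7 of 88 CpGs with the lower strand at 46 bases alone had enough reads, 56 of 978 at 47, 396 of 1298 at 48 and 560 of 1213 at 49. The 7 at 46 bases had medians of 47.2% on the lower and 76.5% on the higher strand there.

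**Figure D3:**
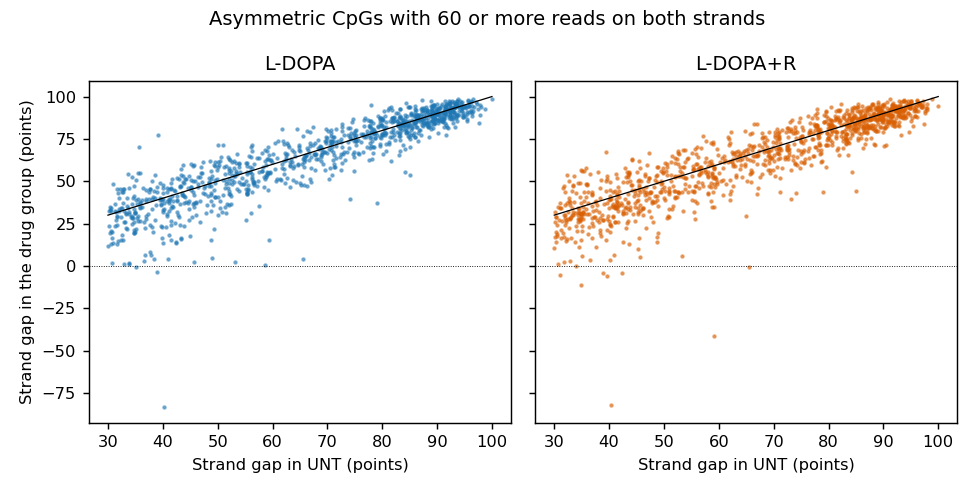
Strand gap of each asymmetric CpG in UNT (x axis, points) and in the drug group (y axis, points; positive where the same strand is lower), for 1070 CpGs in L-DOPA (left) and 1188 in L-DOPA+R (right) with 60 or more reads per strand. Points follow the line of equal gaps, and the lowest point of both panels is chr3:170230623, at -83.4 and -82.1 points.

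The place of the low strand was not the same in all groups. Where the 30-point rule was applied within each group, the lower strand was 47 bases past a kept cytosine at 25.9% of the CpGs found in UNT, but at 3.14% of those found in L-DOPA and 3.33% with Riluzole added. At 50 bases the shares were 0.159%, 40% and 39.6%. The window of low strands thus ran from 47 to 49 bases in UNT and from 48 to 50 bases in both drug groups.

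This shift was present in each striatum. Among CpGs whose opposite strand was at 60% or more in the same striatum, the strand 47 bases past a kept cytosine was at least 30 points lower at 44.9% to 48.1% of CpGs in the UNT striata, 8.55% to 11.4% in the L-DOPA and 11.2% to 13.7% in the L-DOPA+R striata. At 50 bases the order was turned, with 2.14% to 4.19% in the UNT, 50.4% to 55.8% in the L-DOPA and 54.5% to 57.8% in the L-DOPA+R striata. UNT did not overlap with the drug groups at either distance. At 49 bases all groups overlapped, with 49.8% to 53.4%, 46.3% to 53.4% and 49.2% to 54.9%.

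**Figure D4:**
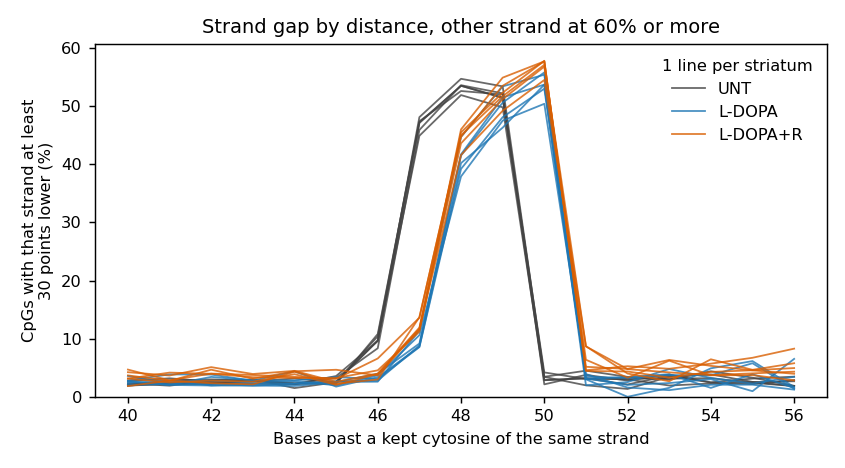
Share of CpGs (y axis, percent) whose strand lies the given number of bases past a kept cytosine (x axis, bases) and is at least 30 points lower than an opposite strand at 60% or more, 1 line per striatum. The 6 UNT lines (dark) rise at 47 and fall at 50 bases, and the 12 lines of the drug groups (blue, L-DOPA; orange, L-DOPA+R) rise at 48 and fall at 51 bases.

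Taken per rat, the share at 50 bases was 3.15% ± 0.655 for UNT, 53.7% ± 1.8 for L-DOPA and 56.9% ± 1.13 for L-DOPA+R (SD, n = 3 rats). The exact two-sided permutation test over 3 against 3 rats gave p = 0.1 for either drug group against UNT, which is the smallest it can give (0.136 adjusted over 15 comparisons of distances and groups). At 206 CpGs with the opposite strand at 60% or more, the strand 50 bases past a kept cytosine had a median of 91.0% for UNT, 57.9% for L-DOPA and 55.7% for L-DOPA+R. The groups differed in treatment, depth and this distance together, and these cannot be told apart here. A single read length of 50 bases and a single trimming are given by the study, with no difference named between groups. Whether the libraries of UNT and the drug groups differed in either was not tested, and such a difference may set the distances. The study's methods give reads of the ends of MspI fragments with bases removed from their 3′ ends, and the part of these steps and of the end fill-in was not tested.

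A pair of CpGs swapped strands between the groups. At chr3:170230623 the forward strand had 38.5% to 53.0% (median 47%) and the reverse strand 78.6% to 97.9% (median 85.6%) in the UNT striata. In L-DOPA the forward strand stood at 81.8% to 100% (median 93.3%, 5 striata) and the reverse strand stood at 3.85% to 18.2% (median 8.33%). In L-DOPA+R the values were 76.5% to 100% (median 92.9%) and 0.0% to 28.6% (median 5.71%). The forward strand of this CpG lies 46 bases, and its reverse strand 50 bases, past a kept cytosine. Taken as reverse minus forward strand, the gap was -82.9 ± 2.29 points for L-DOPA (SD, n = 3 rats; quasi-binomial q = 1.37e-40). With Riluzole it was -81.7 ± 2.71 points (SD, n = 3 rats; quasi-binomial q = 7.52e-22).

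At chr1:279129868, with distances of 47 bases on the forward and 50 on the reverse strand, the forward strand had 13.9% to 48.3% (median 31.9%) in UNT and 63.6% to 87.5% (median 83.3%, 5 striata) in L-DOPA+R. The reverse strand had 85.7% to 100% (median 92.3%) in UNT and 28.3% to 50.8% (median 36.9%) in L-DOPA+R (-41.3 ± 4.49 points for reverse minus forward, SD, n = 3 rats; quasi-binomial q = 6.24e-09). Its levels in UNT and in L-DOPA+R did not overlap on either strand. The swap was also seen in L-DOPA, where the forward strand had 66.7% to 92.9% (median 91.7%, 3 striata). The reverse strand had 34.2% to 48.8% (median 37.7%, 6 striata) in L-DOPA. Both strands were kept in only 3 L-DOPA striata, fewer than the 4 needed, so the strand difference was not tested there. These 2 CpGs were all of those called with the opposite strand lower.

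The next 5 asymmetric CpGs lie in genes that the study names. Their gene names were found by matching the study's own lists of sites that differed between treatments, so these CpGs were preselected for a difference in merged level and do not stand for other asymmetric CpGs. Camk2b encodes the beta subunit of the calcium/calmodulin kinase CaMKII, a kinase of synaptic plasticity. At its intronic CpG chr14:86244303 the forward strand had 0.0% to 10.9% (median 6.08%) and the reverse strand 76.5% to 100% (median 89.7%) in the 6 UNT striata. Among L-DOPA striata the forward strand had 0.0% to 10% (median 7.29%) in 6 and among L-DOPA+R striata 0.0% to 6.25% (median 2.5%) in 4, while the reverse strand had 10 or more reads in none of these 12. The forward strand thus overlapped between all groups, and the merged level was 30.5% for UNT, 6.67% for L-DOPA and 2.99% for L-DOPA+R.

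Cacna1a encodes the pore subunit of P/Q-type calcium channels. At its intronic CpG chr19:25668345 the forward strand had 16.7% to 36.8% (median 27.3%) in UNT, 20.6% to 38.7% (median 31.1%) in L-DOPA and 17.1% to 36.7% (median 32.1%) in L-DOPA+R, each in 6 striata. These ranges overlap. The reverse strand had 87.5% to 95.2% (median 90.2%) in UNT and was kept in no striatum of either drug group. The merged level was 47.4%, 29.3% and 29.6%.

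Grik4 encodes a kainate-type glutamate receptor subunit. Its exonic CpG chr8:46947939 had 0.0% to 16.7% (median 3.28%) on the forward strand in UNT, 0.0% to 5.56% (median 2.13%) in L-DOPA and 0.0% to 30.8% (median 9.09%) in L-DOPA+R. The reverse strand had 68.4% to 93.9% (median 86.3%) in UNT, 63.6% to 90.9% in the 3 L-DOPA striata that kept it, and 100% in the only L-DOPA+R striatum that did. The forward strand overlapped between the groups, and the merged level was 50.9% in UNT.

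Adcy10 encodes the soluble adenylyl cyclase, and its exonic CpG chr13:83756955 had 0.0% to 6.78% (median 2.6%) on the forward and 65.1% to 91.9% (median 77.5%) on the reverse strand in UNT. In the drug groups the forward strand was kept in 2 L-DOPA striata, at 0.0% and 5.0%, and in 4 L-DOPA+R striata, at 0.0% to 10%, and the reverse strand in none. Pigx encodes a subunit of the mannosyltransferase that builds GPI anchors. Its CpG chr11:71938539, annotated as exon and promoter, had a reverse strand at 10.3% to 26.9% (median 20.1%) and a forward strand at 33.3% to 90% (median 53.5%) in UNT. In L-DOPA the reverse strand had 0.0% to 42.9% (median 12.9%) in 6 striata, and the forward strand was kept in 2, at 54.5% and 58.3%. In L-DOPA+R the reverse strand had 0.0% to 18.2% (median 0.0%) in 5 striata and the forward strand was kept in none. This is 1 of the CpGs with no kept cytosine at 46 to 49 bases before its lower strand. It is also the CpG that the promoter sequences placed at Cep19.

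**Figure D5:**
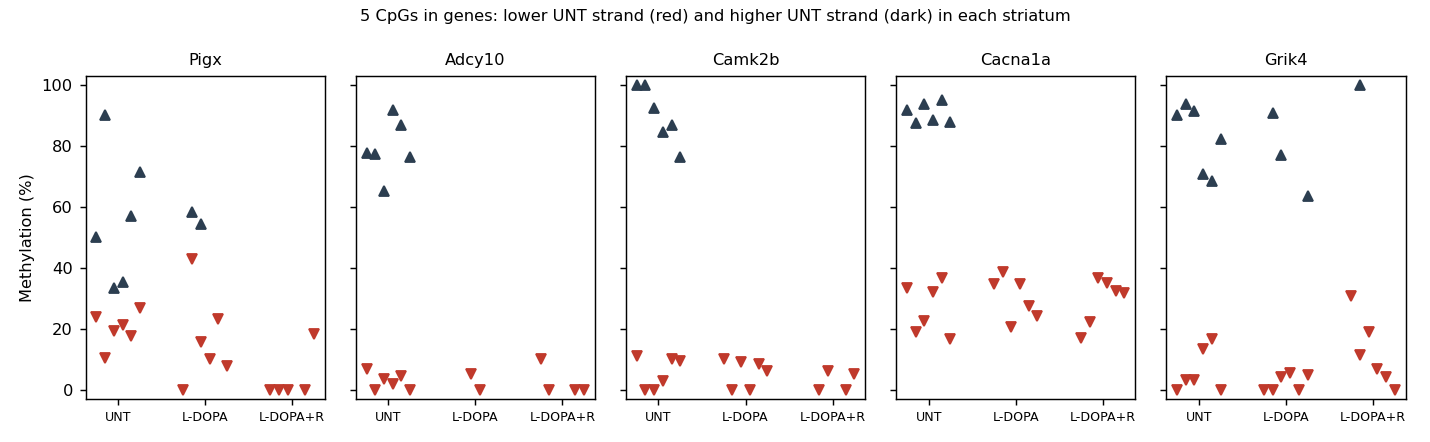
Methylation (y axis, percent) of the lower (red) and higher (dark) UNT strand of 5 CpGs in Pigx, Adcy10, Camk2b, Cacna1a and Grik4, 1 point per striatum with 10 or more reads, by treatment (x axis). In UNT both strands are seen in all 6 striata, while in the drug groups the higher strand is missing from most striata of each panel.

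With the strands merged, as in the usual group comparison, 393 of 2918 asymmetric CpGs (13.5%) differed between L-DOPA and UNT, 196 higher and 197 lower (quasi-binomial q under 0.01; 0.351% of all 654563 CpGs tested, 0.0828% higher and 0.269% lower). Between L-DOPA+R and UNT 406 of 2951 (13.8%) differed, 205 higher and 201 lower (0.445% of all 643889, 0.0839% higher and 0.361% lower). Both comparisons share the UNT striata that chose the CpGs, so nothing is read from these shares. With the F test the counts were 43 (1.47%) and 48 (1.63%), beside 0.0622% and 0.0578% of all CpGs tested.

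Which strand was read differed between the groups at these CpGs. At CpGs chosen for a strand gap, a lost strand must move the merged level, so the following counts are a description. At the 196 CpGs called higher in L-DOPA, the lower strand gave a median of 0.0% of the L-DOPA reads against 51.2% of the UNT reads, and 127 of them had no kept lower strand in any L-DOPA striatum. At the 197 called lower, the lower strand gave a median of 100% of the L-DOPA reads against 56.8% in UNT, and 172 had no kept higher strand. In L-DOPA+R 131 of 205 called higher lacked the lower strand and 183 of 201 called lower lacked the higher strand. When the fit held a term for the strand, 55 (1.88%) and 56 (1.9%) of the asymmetric CpGs were called, beside 0.126% and 0.179% of all. Of these, 53 were higher and 2 lower in L-DOPA, and 47 were higher and 9 lower with Riluzole added. On the lower strand alone the counts were 63 of 2273 (2.77%) and 62 of 2248 (2.76%), beside 0.124% and 0.173% of all, and all but 1 and 2 of them were higher in the drug group. On the higher strand alone they were 7 of 1874 (0.374%) and 12 of 2027 (0.592%), beside 0.109% and 0.17% of all, with 1 and 4 higher. These counts also rest on the UNT values that chose the CpGs.

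The 5 gene sites come from lists of sites that differed, so their tests are given as a description only. By the merged test, Camk2b chr14:86244303 differed from UNT by -23.9 points in L-DOPA (q = 0.00297, quasi-binomial test across all CpGs) and by -27.6 points in L-DOPA+R (q = 0.00941, same test). Cacna1a chr19:25668345 differed by -18.1 and -17.8 points (quasi-binomial q = 0.000501 and 0.00118), and Grik4 chr8:46947939 by -32.8 and -32.9 points (quasi-binomial q = 0.000269 and 0.00763). Adcy10 and Pigx were called in L-DOPA+R only, at -30.5 and -28.7 points (quasi-binomial q = 0.00606 and 0.00501), where Adcy10 could not be tested in L-DOPA and Pigx differed by -7.12 points there (q = 0.902). With the strand as a term none of these 5 CpGs was called, with q from 0.162 to 1.0 by the same test. On the forward strand alone, Cacna1a was 2.51 points higher in L-DOPA and 2.77 points higher in L-DOPA+R than in UNT, with q = 1.0 for both. At Pigx the reverse strand itself, over all reads, stood at 20% in UNT and 2.25% in L-DOPA+R.

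The effect of Riluzole was addressed by setting L-DOPA+R against L-DOPA, 2 groups that the rule did not use. There, 8 of 2755 asymmetric CpGs (0.29%) differed, 5 higher and 3 lower (quasi-binomial q under 0.01; 0.0477% of all 568416, 0.0201% higher and 0.0276% lower). The F test called none, with 155 at an unadjusted p under 0.05, and the fit with the strand as a term called 4 (0.145%, beside 0.0477% of all). A block for the replicate number called 16 (0.581%, beside 0.0925% of all), although this number stands for different rats in the 2 groups. Without replicate 3, 20 were called (0.796%, beside 0.113% of all).

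The smallest q among the named ones belonged to chr17:60292392, where all 6 L-DOPA striata had 0.0% on the reverse strand (11 to 38 reads each) and the 6 L-DOPA+R striata had 17.6% to 58.3% (median 35.8%). The groups did not overlap on this strand, which stood at 0.0% and 35.7% over all reads. The merged difference was larger, 47.7 points (quasi-binomial q = 9.09e-14). It includes the forward strand, kept in no L-DOPA striatum and in 2 L-DOPA+R striata, at 81.0% and 90.9%. With the strand as a term, this CpG was also called (quasi-binomial q = 8.12e-15). On the reverse strand, the UNT striata had 0.0% in 4 striata and 34.7% and 42.4% in the control and lesioned striata of rat 3. At chr13:110511559, an exonic CpG just past the start of the centrosomal kinase gene Nek2, the forward strand had 36.4% to 60% (median 51.8%) in L-DOPA and 0.0% to 27.8% (median 0.0%) in L-DOPA+R. The reverse strand stayed at 0.0% to 12.5% in L-DOPA and at 0.0% in the 4 L-DOPA+R striata that kept it. The merged difference, L-DOPA+R minus L-DOPA, was -29.0 points (quasi-binomial q = 0.000511), and with the strand as a term it was still called (q = 2.27e-05). At chr18:25482176 the difference of 26.1 points (quasi-binomial q = 0.000379) was no longer called with the strand as a term (q = 0.834), and the low reverse strand was kept in 3 L-DOPA and 0 L-DOPA+R striata.

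The lesioned and the control side were compared within each group. None of 3722 asymmetric CpGs was called in UNT by the quasi-binomial test (220 at an unadjusted p under 0.05) or by the F test (45), against 0.00193% of all CpGs (0.000966% in either direction). In L-DOPA 2 of 2046 were called (0.00101% of all) both lower on the lesioned side, and in L-DOPA+R 3 of 2206 (0.00176% of all, 0.00126% higher and 0.000503% lower), 1 higher and 2 lower. The F test called 0 in both, with 42 and 52 at an unadjusted p under 0.05. With the rat as a block, 0, 11 (0.538%) and 15 (0.68%) were called in the 3 groups, beside 0.004%, 0.00581% and 0.0078% of all CpGs.

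At each of these CpGs, 1 strand was kept on 1 side only in the group where it was called. At chr8:46205401, called in both drug groups (-34.8 and -43.3 points, lesioned minus control; quasi-binomial q = 0.00836 and 0.00232), the forward strand had 90% to 91.7% in the 3 control striata for L-DOPA and 93.3% to 100% in those for L-DOPA+R, and was kept in no lesioned striatum. The reverse strand, present on both sides, had 0.0% to 8.7% in L-DOPA and 0.0% to 10.5% in L-DOPA+R. Its partner chr8:46205450, 49 bases on, was 50.9 points higher on the lesioned side in L-DOPA+R (quasi-binomial q = 0.000146), with the low forward strand at 0.0% in the 3 control striata and not kept in the lesioned ones. At chr1:144205888 (-43.4 points; quasi-binomial q = 8.02e-05) the high reverse strand was kept only on the control side of L-DOPA+R (3 striata), and at chr3:176639515 (-25.8 points in L-DOPA; quasi-binomial q = 0.00688) only in the 3 control striata of L-DOPA.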

How the data were processed

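RRBS was done on 18 rat striata. Per the labels and the methods of the study, the authors trimmed reads with Trim Galore (0.4.0, RRBS option), aligned them to rn6 with Bismark and deposited, per striatum and cytosine, the coverage as a count of reads and the percent of methylated and of unmethylated reads. Methylated counts were taken as percent times coverage, rounded. Cytosines with 10 or more reads were kept, spike-in controls were left out, and strands were paired as CpGs. The asymmetric CpGs and all lists were chosen with earlier results of these data known. The distances were looked at after values had been seen.

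Tests were logistic models with an overdispersion correction (Pearson, floor 1) and a chi-square test, with Benjamini-Hochberg q under 0.01 over all CpGs tested, in Python 3.11.15 with numpy 2.4.6 and scipy 1.17.1. Group comparisons added up both strands and needed 4 of 6 striata per group; side comparisons needed all 6. The strand test took each striatum's strands as observations. On simulated data of 20000 CpGs with 200 strand differences of 30 points in L-DOPA, 153 were recovered with 0 false calls when striata did not vary, and 129 with 4 false calls when they did; the F test recovered 0 and 1. For L-DOPA+R against L-DOPA, 177 and 149 were recovered, with 1 and 16 false calls. Both striata of a rat were counted as samples, so p-values may be too small.

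Same-numbered striata of both sides were taken as 1 rat. Over 14697 CpGs kept in all 18 striata, the deviations from the group means correlated at 0.058 to 0.21 in the 9 rats and at -0.148 to 0.062 between rats of a group. Between treatments, same numbers stand for different rats (-0.105 to 0.042). At the 266 asymmetric CpGs among the 14697, same-numbered sides of a treatment correlated at -0.03 to 0.16. Differently numbered sides correlated at -0.131 to 0.074 there, so the ranges overlap.

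Named sites were fixed by rule: the widest gaps, those nearest the threshold, the smallest p of each strand test, CpGs called with the opposite strand lower, called between L-DOPA+R and L-DOPA with 1 sign over all 9 rat-to-rat differences, or called between sides, those with most reads, and those in genes the study names, with gene and region from its annotation. Its own comparison columns hold p-values, q-values and differences and were not used. Promoter sequences were placed on the rn6 calls when 8 or more kept CpGs fitted at 1 place. An rn6 sequence was not used here.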

Additional observations from a re-analysis of the deposited data

Results flagged for a closer look

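Striata far from the others of their group were looked for in 85 groups of 4 to 6 striata, and chance alone marks about 1 in 20. The median gap over the asymmetric CpGs was 66.4 points in the lesioned striatum of L-DOPA rat 2, below the other 5 L-DOPA striata. At chr1:11915762, a CpG with few reads on its lower strand, 1 L-DOPA striatum had a gap of -33.5 points, with the usually lower strand the higher one. At chr1:55737118 the lowest L-DOPA gap was 28.0 points, at chr9:11477867 the lowest was 71.3 points, and at chr3:176639515 the lowest of 4 L-DOPA+R gaps was 73.3 points.

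Among the named CpGs, the strand gap had opposite signs in UNT and a drug group at chr3:170230623 and chr1:279129868. This held in every striatum with both strands kept, and the difference itself was not tested. At chr1:279129868 it held in L-DOPA too, with gaps of -53.7 to -17.9 points over 3 striata. Some named CpGs were chosen for a call with the opposite strand lower, and the other asymmetric CpGs were not searched in this way. At chr3:170230623 the median gap was -84.2 points in L-DOPA and -83.0 points in L-DOPA+R, and at chr1:279129868 it was -46.2 points in L-DOPA+R, where positive values mean the strand that was lower in UNT.

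Outside chr1 to chr20, 10 of 692 CpGs with enough reads on chrX passed the 30-point rule, 9 of them with the lower strand 47 to 49 bases past a kept cytosine. On unplaced contigs 8 of 278 passed, all 8 at that distance, and on the mitochondrial genome 0 of 3.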

How the results depend on the processing

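The number of asymmetric CpGs was 3775, 2102 with 20 reads per cytosine, 1769 with 120 reads per strand and 170 without cytosines 46 to 50 bases past a cytosine. It was 2570 to 3166 with 1 rat left out. Calls with the same lower strand for L-DOPA and L-DOPA+R (1140 and 1211) were fewer where fewer CpGs could be tested. With 20 reads they were 109 of 120 and 170 of 185, beside 4.54% and 3.92% of all CpGs tested. With all 6 striata they were 403 of 424 and 507 of 532, beside 4.36% and 3.67%. Without the 46 to 50 base positions they were 24 of 56 and 36 of 66, beside 0.175% and 0.194%. With 1 rat left out, the L-DOPA calls ran from 848 of 943 to 1319 of 1465, beside 3.44% and 3.09%. The L-DOPA+R calls ran from 1013 of 1175 to 1222 of 1391, beside 2.44% and 2.92%. With a block for the striatum the calls were 1120 of 1220 and 1202 of 1319, beside 3.61% and 3.13%.

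Against UNT (393 in L-DOPA, 406 in L-DOPA+R), the counts were 43 and 48 by the F test and 55 and 56 with the strand as a term. They were 63 and 62 on the lower strand and 7 and 12 on the higher strand, and the shares of these fits are given above. With no overdispersion correction they were 624 (21.4%) and 713 (24.2%), beside 0.744% and 1.22% of all CpGs tested. With 20 reads they were 95 (7.8%) and 118 (8.6%), beside 0.421% and 0.599%. Without the 46 to 50 base positions they were 7 (0.369%) and 7 (0.341%), beside 0.0776% and 0.132%. With 1 number left out, the L-DOPA counts ran from 243 (9.01%, without rat number 1) to 347 (11.6%), beside 0.274% and 0.307% of all. The L-DOPA+R counts ran from 297 (10.7%) to 330 (11.1%), beside 0.51% and 0.315%. With the replicate block they were 393 (13.5%) and 407 (13.8%), beside 0.418% and 0.508%. For L-DOPA+R against L-DOPA (8), the F test called 0, the fit with the strand as a term 4 and the replicate block 16, with shares given above. The fit with no correction called 79 (2.87%, beside 0.285% of all) and the fit with 20 reads 2 (0.196%, beside 0.0742%). The lower and higher strand alone gave 1 (0.0492%, beside 0.0469%) and 3 (0.178%, beside 0.0453%). Without the 46 to 50 base positions 4 were called (0.233%, beside 0.0437%). With 1 number left out, 6 (0.23%, beside 0.0438%) to 20 (0.796%, beside 0.113%) were called.

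Between sides in UNT, L-DOPA and L-DOPA+R (0, 2 and 3), the F test called 0 in each. The fit with no correction called 0, 18 (0.88%) and 23 (1.04%), beside 0.00897%, 0.0129% and 0.0151% of all CpGs tested. The fit with 20 reads called 8 (0.314%), 0 and 1 (0.147%), beside 0.00418%, 0.00256% and 0.00433% of all. The rat as a replicate block called 0, 11 (0.538%) and 15 (0.68%), beside 0.004%, 0.00581% and 0.0078% of all. With 1 rat left out the ranges were 1 to 6, 3 to 9 and 5 to 13, highest without rat 1, rat 2 and rat 1. In those highest fits the shares were 0.161%, 0.351% and 0.516%, beside 0.00255%, 0.0033% and 0.00494% of all.

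On the lower strand alone the difference from UNT turned from negative to 1.16 points in L-DOPA at Camk2b chr14:86244303, to 2.51 and 2.77 in the drug groups at Cacna1a chr19:25668345, and to 3.8 in L-DOPA+R at Grik4 chr8:46947939, and with 20 reads the side difference in L-DOPA at chr3:176639515 turned to 1.43. Over the other alternatives at named CpGs, 346 values kept their side of the threshold, 77 lost and 4 gained a call. The cause of these changes was not tested. Fewer of the asymmetric CpGs could be read in the drug groups, where both strands were kept at 920 to 2075 of the 3775 per striatum. This loss differed with the distance of the lower strand, and the part of depth in it was not tested.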
